A study of Homo sapiens with 13 samples.

Results

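The genes described here are 42 human genes of the ATF4 amino acid programme and the unfolded protein response. They were chosen by name as a list of ATF4 targets, amino acid synthesis enzymes and endoplasmic reticulum stress genes, with earlier results of these data known. All 42 were listed in each of the 3 deposited count tables, out of 16998 symbols that the tables share and 73266 that any of them lists. The study worked on the locus that holds PRR11 and SKA2, which share a bidirectional promoter, and the microRNAs miR301a and miR454, in A549 cells, an established human lung adenocarcinoma line. Polyadenylated RNA was sequenced from 13 libraries, 1 per group. A line with promoter repression by CRISPR interference (CRISPRi_PRR11+SKA2 promoter-sgRNA#1) was paired with a mock guide line (CRISPRi_Mock sgRNA). Lines with lentiviral expression of PRR11, SKA2 or both from a CMV promoter (LV-PRR11, LV-SKA2 and LV-P+S) were paired with LV-vector-PS. Lines with lentiviral expression of miR301a, miR454 or both (LV-miR301a, LV-miR454 and LV-3+4) were paired with LV-vector-34. Knockout lines of the 2 microRNA precursors (CRISPRd_miR301a-#2 and CRISPRd_miR454-#1) were paired with CRISPRd_Control. The 13 libraries hold no untreated A549 cells, and the labels do not say whether a line was a clone or a pool.

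ATF4 is a transcription factor whose protein is made when the alpha subunit of the initiation factor eIF2 is phosphorylated, for instance by GCN2 on amino acid shortage or by PERK on protein misfolding in the endoplasmic reticulum. It raises enzymes of serine, glycine, asparagine and cysteine synthesis and amino acid carriers, with partners of the C/EBP family. The other arms of the unfolded protein response run through IRE1, which splices the XBP1 message, and through ATF6, and they raise chaperones and degradation factors of the endoplasmic reticulum. ATF4 output is set largely by translation, so the ATF4 message alone is a limited reading of its activity. A549 cells carry an inactive KEAP1, which keeps NRF2 on, and SLC7A11 is a target shared by NRF2 and ATF4.

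The arms of this response are read from different DNA elements, so the promoters of the genes were searched for them. RefSeq start-site windows (build GRCh38.p14, 250 bases before to 50 after a start) were at hand for 37 of the 42 genes, and none was matched for NUPR1, PSPH, SHMT2, ALDH1L2 or SLC7A11. The core of the C/EBP-ATF response element, TGATGNAA on either strand, was in the windows of 6 of the 37 genes, against 4.46% of 27305 genes with windows of the same length. It lay before the start in ASNS, CEBPG, CHAC1 and HERPUD1 and after it in SLC3A2 and SLC7A1. The endoplasmic reticulum stress element, CCAAT and CCACG with 9 free bases between them on either strand, was in 6 of the 37, namely XBP1, HSPA5, HSP90B1, CALR, PDIA6 and CRELD2, against 0.0916% of all genes. The unfolded protein response element, TGACGTGG on either strand, was in HYOU1 only, against 0.927% of all genes. No window held more than 1 of these 3 patterns. A match is a description of the letters and not a binding site, and the lack of one says nothing about the factor. The stretches below are shown for ASNS, CHAC1, HERPUD1 and XBP1 because each passed the rule for a change in at least 1 library, as given further on. Those of HSPA5 and CRELD2, chaperone genes that passed it in none, are set beside XBP1 for the shared element. They are given 5′ to 3′ on the strand of the gene, with the element in capitals. For ASNS (chr7:97872458-97872487, minus strand), CHAC1 (chr15:40953251-40953280, plus strand) and HERPUD1 (chr16:56931936-56932003, plus strand) the capitals mark the ATF core, which in CHAC1 and HERPUD1 reads on the opposite strand. For XBP1 (chr22:28800598-28800626, minus strand), HSPA5 (chr9:125241361-125241439, minus strand) and CRELD2 (chr22:49918524-49918602, plus strand) they mark the outer parts of the stress element, which in CRELD2 reads on the opposite strand.
ASNS: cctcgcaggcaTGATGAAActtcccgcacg
CHAC1: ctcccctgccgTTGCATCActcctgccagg
HERPUD1: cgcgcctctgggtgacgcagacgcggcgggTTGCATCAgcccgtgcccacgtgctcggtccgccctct
XBP1: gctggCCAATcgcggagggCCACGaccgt
HSPA5: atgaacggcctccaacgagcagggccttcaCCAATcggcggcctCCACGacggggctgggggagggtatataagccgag
CRELD2: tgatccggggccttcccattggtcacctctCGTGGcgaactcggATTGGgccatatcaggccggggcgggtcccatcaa

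Library totals ran from 18672601 to 21811946 expected counts. All values below are CPM, that is counts relative to a common library total, scaled within a table, and levels from different tables are set side by side only. With 1 library per group, a ratio compares 2 libraries and not 2 conditions, and its exact (Clopper-Pearson) 95% interval covers counting error alone. PRR11 was at 0.643% and SKA2 at 0.292% of the mock level in the promoter-repressed library. The libraries labelled LV-SKA2 and LV-P+S had SKA2 at 84.4% and 88.7% of the vector, so SKA2 went against the label in both, and LV-PRR11 had PRR11 at 109% of the vector. The MIR454 row held 468 counts in LV-miR454 but 0 in the library labelled LV-3+4, and 28 in the one labelled LV-miR301a. MIR301A held 29, 0 and 34 counts in LV-miR301a, LV-miR454 and LV-3+4. Both microRNA rows were at 0 in the knockout libraries and in their control, so the knockouts are named by their labels. PRR11 was at 72.4% of CRISPRd_Control in the miR301a knockout and 68.5% in the miR454 knockout. SKA2 was at 99.1% and 70.0%. All 7 markers of A549 and epithelial cells were detected in every library, while COL1A2 and POSTN, 2 of 10 fibroblast markers, were at 0 in the mock library and detected in the promoter-repressed one. In bulk RNA, fewer cells that express a gene and less RNA per cell cannot be told apart.

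A gene was counted as higher or lower when it differed by at least 2-fold on the log2(CPM + 0.5) scale, with a counting interval that excluded equality. All 42 genes passed the minimum of 20 reads over the pair and 1 CPM in either library, in every pair. The miR301a knockout library had 12 of the 42 past this rule, where 10.9% of all measured genes were called. Of these, 3 were higher (6.72% of all genes) and 9 lower (4.15%). The miR454 knockout library had 6 of 42 called against 9.72% of all genes, with 4 higher (6.61%) and 2 lower (3.1%). LV-miR454 had 4 called, all lower (6.39% of all genes called, 3.42% lower), and the library labelled LV-3+4 had CHAC1 alone, on the high side (0.645%, 0.285% higher). No member was called in LV-miR301a (0.731% of all genes), LV-PRR11 (0.299%), LV-SKA2 (0.252%) or LV-P+S (0.261%). The promoter-repressed library had 4 called against 15.4% of all genes, 2 higher (9.43%) and 2 lower (5.97%). Counted in either direction, the share of members called was above the background in the miR301a knockout and below it under promoter repression. It was a little above the background in the miR454 knockout and LV-miR454. In the miR301a knockout only the lower calls (9, against 4.15% of all genes) were above their background, and the 3 higher were close to 6.72%. The 4 calls of LV-miR454 were all lower, well above the 3.42% of all genes. The list was made with earlier results of these data known, so these shares are descriptions. LV-PRR11, LV-SKA2 and LV-P+S share 1 control, as do the 3 lentiviral microRNA libraries and the 2 knockouts, so the columns within each set are not independent.

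**Figure D1:**
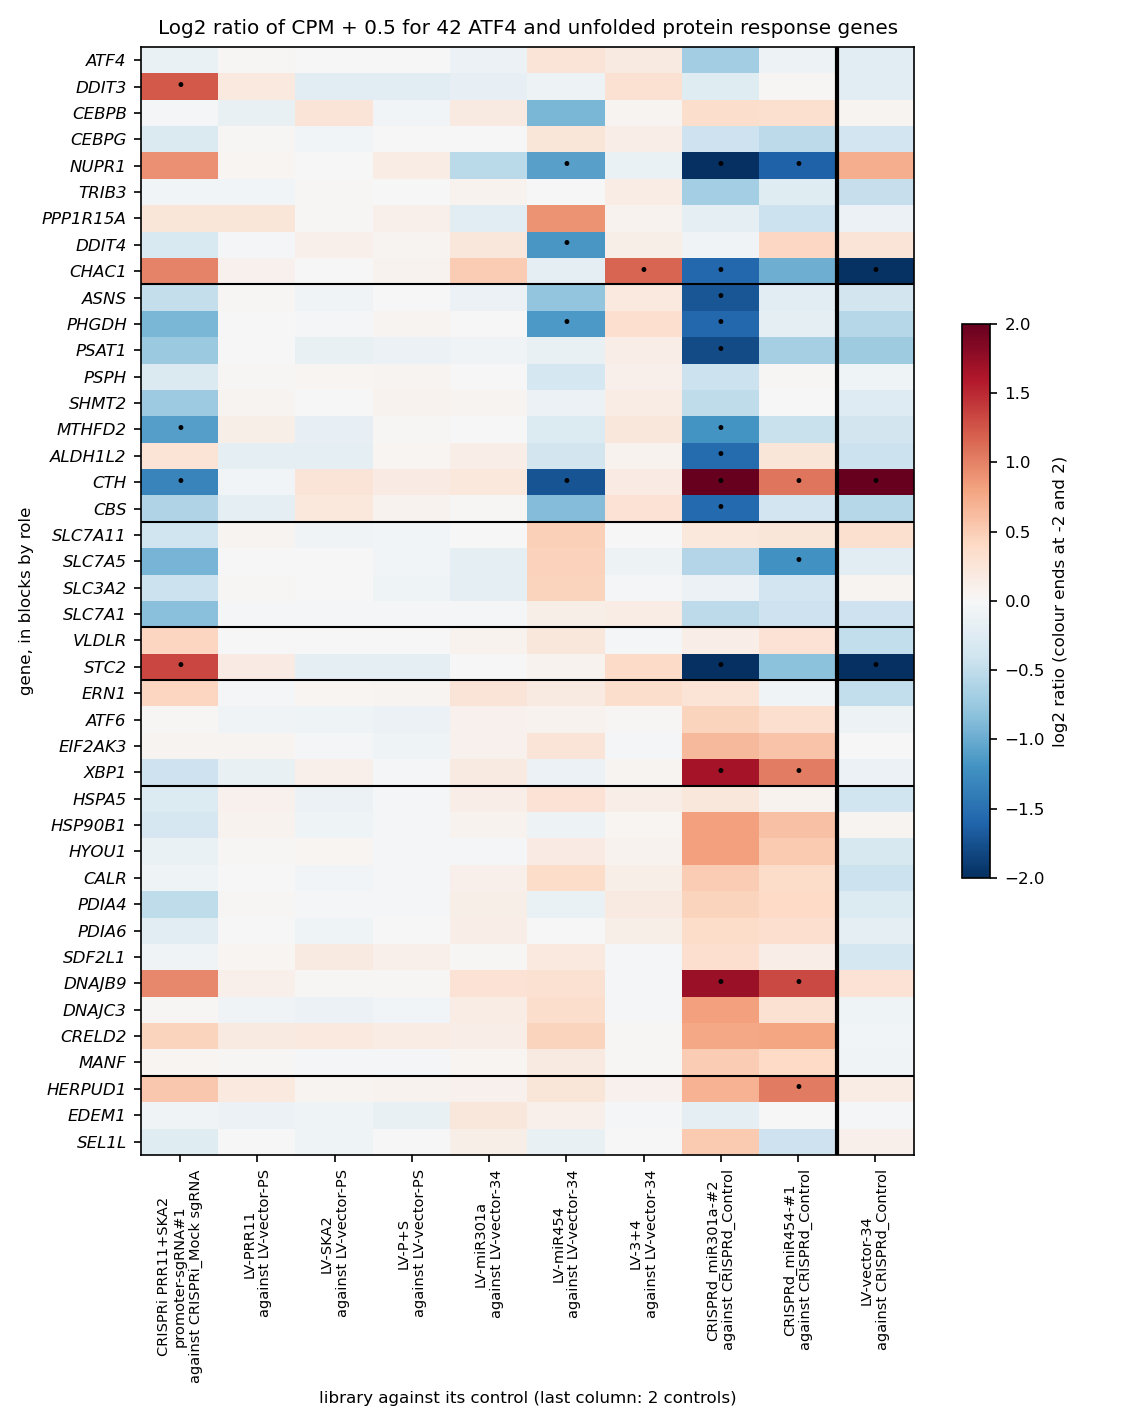
Log2 ratio of CPM + 0.5 (colour, ending at -2 and 2) for the 42 genes (vertical axis, in blocks by role) in each library against its control (horizontal axis), with the ratio of the 2 controls of the microRNA table in the last column. Dots mark genes past the 2-fold rule, which are most numerous in the column of the miR301a knockout (3 higher and 9 lower).

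The 2 controls that share a table with the knockouts differed from each other in 3 of the 42 genes, where 4.35% of all genes were called. CTH was at 19.4 CPM in LV-vector-34 and 3.80 in CRISPRd_Control. CHAC1 was at 4.45 CPM in LV-vector-34 and 19.1 in CRISPRd_Control, and STC2 was at 24.2 and 102 CPM. CRISPRd_Control thus had the lowest CTH and the highest CHAC1 and STC2 of the 7 libraries in that table. Ratios of the knockouts are given against CRISPRd_Control, with those to LV-vector-34 beside them for the calls, and against LV-vector-34 8.84% (miR301a knockout) and 9.28% (miR454 knockout) of all genes were called. The 2 controls are different lines, and a difference of construct and one of culture cannot be told apart.

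Among the 9 regulators, NUPR1, a small stress-induced chromatin protein, was lower in 3 libraries. Its level was 16.0 CPM in LV-vector-34, 10.9 in LV-miR301a, 7.24 in LV-miR454 and 14.5 in LV-3+4. In the knockout set it was 9.47 CPM in CRISPRd_Control, 0.916 in the miR301a knockout and 2.74 in the miR454 knockout. Both knockouts were thus below each of the other 5 libraries of the table. The share of all genes with such a split was not counted. NUPR1 fell 10.3-fold (interval 6.29 to 18.1) in the miR301a knockout and 3.45-fold (2.52 to 4.82) in the miR454 knockout, and 17.4-fold and 5.82-fold against LV-vector-34. It fell 2.21-fold (1.80 to 2.72) in LV-miR454. NUPR1 was thus below its control both in the miR454 knockout and in LV-miR454. In the promoter-repressed library NUPR1 was at 15.5 CPM against 7.98, a log2 ratio of 0.92 that missed the rule.

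The remaining regulators changed in fewer places. The ATF4 message itself passed the rule nowhere. It ran from 211 to 348 CPM in the microRNA table, with the miR301a knockout lowest, at a log2 ratio of -0.69 to CRISPRd_Control and -0.46 to LV-vector-34. DDIT3, which encodes the stress factor CHOP, was at 5.50 CPM in the mock library and 13.5 in the promoter-repressed one, a 2.45-fold rise (1.96 to 3.07), and stayed between 6.25 and 9.08 CPM in the other 11 libraries. DDIT4, an inhibitor of the growth kinase mTORC1, fell 2.25-fold (2.14 to 2.37) in LV-miR454, from 259 to 115 CPM. PPP1R15A, the phosphatase subunit that reverses eIF2 phosphorylation, was at 82.1 CPM in that library and between 35.3 and 47.7 in the other 6 of its table, with a log2 ratio of 0.90 that missed the rule. CEBPB, a C/EBP partner of ATF4, was at 125 CPM in LV-miR454 and between 229 and 293 in the other 6, a log2 ratio of -0.92. CEBPG, another such partner, and TRIB3, a pseudokinase that ATF4 raises and that restrains it, passed the rule in no library.

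CHAC1, which degrades glutathione, moved with the choice of control. It was at 4.45 CPM in LV-vector-34, 6.52 in LV-miR301a, 3.80 in LV-miR454 and 10.6 in the library labelled LV-3+4, a 2.39-fold rise (1.85 to 3.12) in the last. It was at 19.1 CPM in CRISPRd_Control, 6.09 in the miR301a knockout and 9.44 in the miR454 knockout. CHAC1 therefore fell 3.13-fold (2.53 to 3.90) in the miR301a knockout against CRISPRd_Control, but its log2 ratio was 0.41 against LV-vector-34. In the miR454 knockout the log2 ratio was -0.98 against CRISPRd_Control and 1.01 against LV-vector-34, and only the latter passed the rule. The direction for CHAC1 in both knockouts thus turned with the control used. It was at 6.76 CPM in the promoter-repressed library and 3.16 in the mock, a log2 ratio of 0.99 just short of the rule.

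The amino acid synthesis enzymes held 7 of the 12 calls of the miR301a knockout library. Of the 9, 6 fell (4.15% of all genes were lower) and 1 rose (6.72% were higher). The median log2 ratio of the 9 was -1.55 against -0.01 over all genes. ASNS, asparagine synthetase, was at 132 CPM in CRISPRd_Control and 40.0 in the knockout, a 3.30-fold fall (3.04 to 3.59). PHGDH, the entry enzyme of serine synthesis, went from 124 to 41.2 CPM, a 3.01-fold fall (2.77 to 3.27). PSAT1, the next enzyme of that route, went from 247 to 70.8 CPM, a 3.48-fold fall (3.28 to 3.70). The third enzyme, PSPH, was at 47.4 and 35.0 CPM, a log2 ratio of -0.43 (-0.34 to LV-vector-34), so the steps of the serine route did not fall alike in this library. The mitochondrial folate enzymes were also low: MTHFD2 fell 2.29-fold (2.16 to 2.42), from 223 to 97.7 CPM, and ALDH1L2 fell 3.07-fold (2.49 to 3.82), from 19.1 to 6.20 CPM. SHMT2, the mitochondrial enzyme that turns serine to glycine, was at 165 and 116 CPM, and at 137 in LV-vector-34, and missed the rule against both.

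Against LV-vector-34, which had lower levels of 8 of the 9 enzymes than CRISPRd_Control, the synthesis group had a median log2 ratio of -0.98 in the miR301a knockout. ASNS (103 CPM in LV-vector-34), PHGDH (83.5), PSAT1 (150) and ALDH1L2 (14.0) still passed the rule as lower, with folds of 2.56, 2.03, 2.12 and 2.26. MTHFD2 (log2 ratio -0.83) and CBS (-0.98) did not. ASNS, PSAT1, MTHFD2, ALDH1L2 and CBS were each lower in the miR301a knockout than in any other library of the table. The share of all genes that were lowest in this library was not counted. PHGDH was at 37.3 CPM in LV-miR454, below the 41.2 of the knockout. In the miR454 knockout, by contrast, the median of the group was -0.19 against CRISPRd_Control and 0.15 against LV-vector-34, and CTH alone passed the rule, in opposite directions against the 2 controls.

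**Figure D2:**
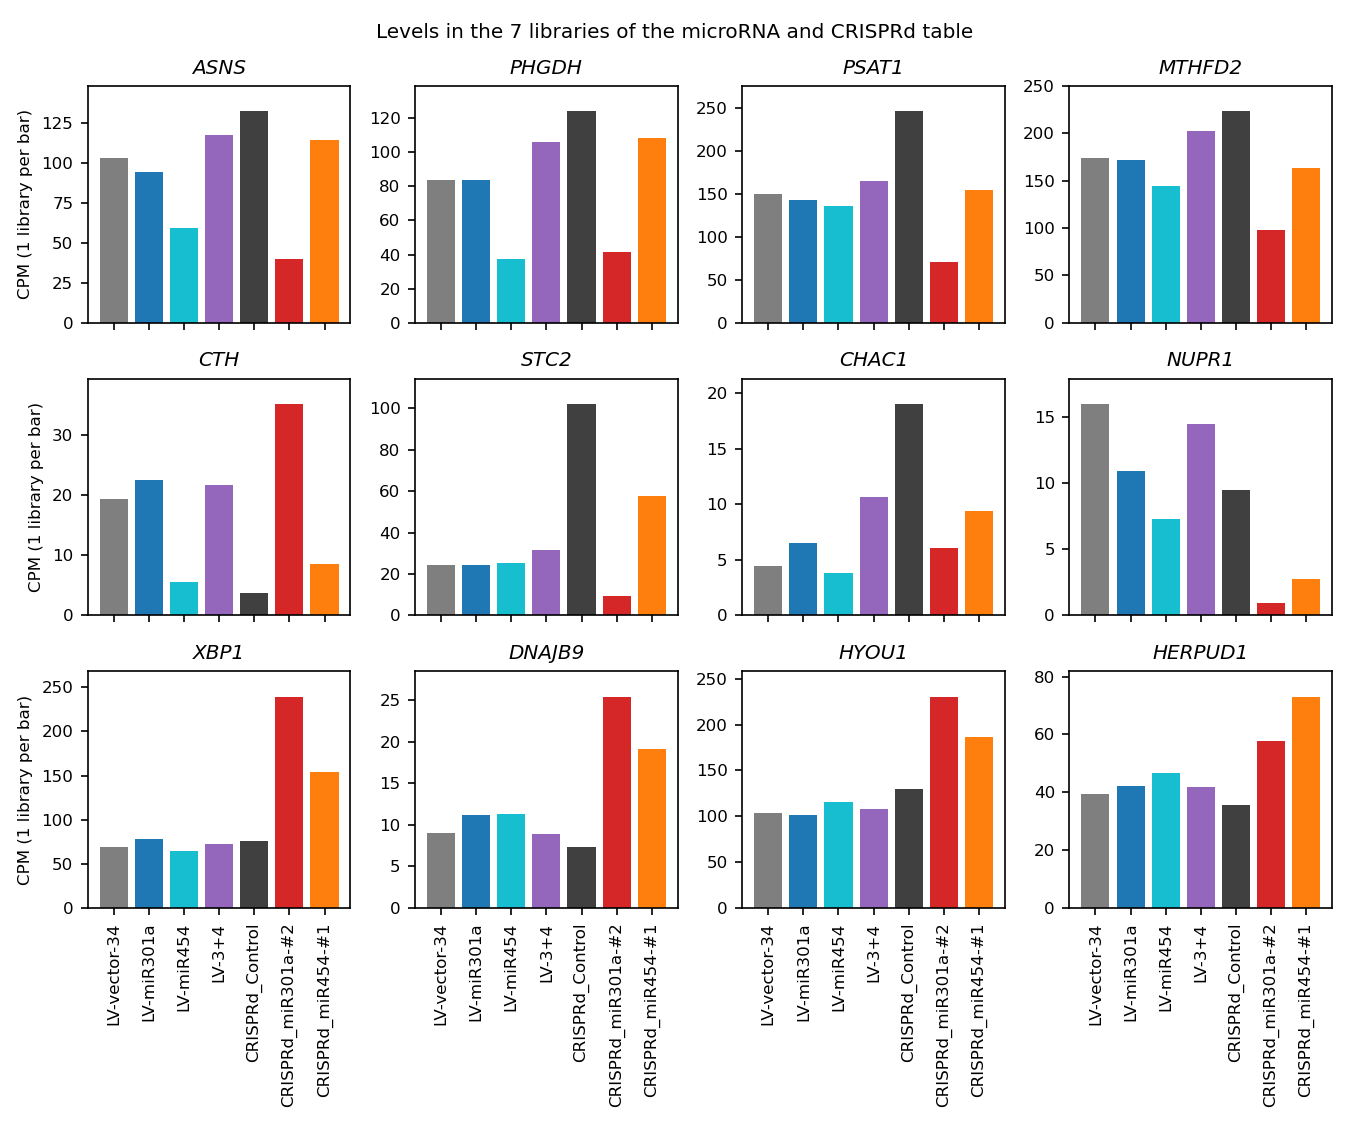
CPM (vertical axes, from 0, each panel on its own scale) of 12 genes in the 7 libraries of the microRNA table (horizontal axis), with 1 library per bar and no replicates, so no error bars. The miR301a knockout has the lowest ASNS (40.0 CPM) and the highest XBP1 (240 CPM), while CRISPRd_Control has the highest STC2 (102 CPM) and CHAC1 (19.1 CPM).

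The transsulfuration enzymes, which make cysteine from homocysteine, went apart in the miR301a knockout. CBS, the first of them, went from 44.2 to 14.8 CPM, a 2.99-fold fall (2.61 to 3.44). CBS has a near-identical copy, CBSL, to which counts can be split, and adding the copy left the log2 ratio at -1.55. CTH, the second, was at 3.80 CPM in CRISPRd_Control and 35.2 in the knockout, a 9.28-fold rise (7.30 to 11.9). In LV-vector-34, LV-miR301a and LV-3+4 CTH was at 19.4, 22.5 and 21.7 CPM, so its log2 ratio to LV-vector-34 was 0.85, short of the rule. The miR454 knockout, at 8.56 CPM, was 2.25-fold higher (1.70 to 3.01) than CRISPRd_Control and 2.26-fold lower (1.87 to 2.74) than LV-vector-34. CTH in the miR454 knockout therefore had no direction that held against both controls, and its log2 ratio to CRISPRd_Control was 0.97, short of the rule, with total-count scaling. CTH fell 3.52-fold (2.83 to 4.42) in LV-miR454, from 19.4 to 5.49 CPM, and 2.89-fold (2.01 to 4.22) in the promoter-repressed library, from 5.50 to 1.90 CPM.

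In LV-miR454 all 9 enzymes were on the low side of LV-vector-34, with a median log2 ratio of -0.37. Of these, 2 were called lower, where 3.42% of all genes were. PHGDH fell 2.24-fold (2.05 to 2.45), from 83.5 to 37.3 CPM, beside CTH. ASNS, at 58.9 CPM, and CBS, at 16.1, had log2 ratios of -0.80 and -0.86 and missed the rule. PSAT1, at 136 CPM against 150, had one of -0.15. The library labelled LV-3+4 had all 9 above the same vector, with a median log2 ratio of 0.16 and no call. LV-miR301a had 6 of 9 above it, with a median of 0.01. Under promoter repression 8 of 9 enzymes were lower than in the mock library, with a median of -0.72 against -0.04 over all genes. MTHFD2 fell 2.16-fold (2.05 to 2.28), from 219 to 101 CPM, and PHGDH, at 53.8 and 28.4 CPM, came near the rule with a log2 ratio of -0.91.

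The 4 amino acid carriers were SLC7A5 and SLC3A2, the chains of the leucine exchanger LAT1, SLC7A11, the cystine carrier that pairs with SLC3A2, and SLC7A1, a carrier of cationic amino acids. SLC7A5 was at 1669 CPM in CRISPRd_Control, 1112 in the miR301a knockout and 720 in the miR454 knockout, the lowest of the table. Its fall in the miR454 knockout was 2.32-fold (2.27 to 2.37), and 2.00-fold (1.96 to 2.05) against LV-vector-34, where it was at 1442 CPM. LV-miR454 had the highest SLC7A5 of the table, 1981 CPM, at a log2 ratio of 0.46. SLC3A2 and SLC7A11 had log2 ratios of 0.44 and 0.48 there, so the 4 carriers were on the high side (median 0.45) in the library where the 9 enzymes were on the low side. In the promoter-repressed library all 4 carriers were lower than in the mock, with a median of -0.64 and none past the rule. SLC7A5 came nearest, with 2404 CPM in the mock and 1264 in the repressed library.

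STC2, a secreted glycoprotein that ATF4 raises, passed the rule against the paired control in the miR301a knockout and under promoter repression. It was at 24.2 CPM in LV-vector-34, 24.2 in LV-miR301a, 25.4 in LV-miR454 and 31.8 in LV-3+4. It was at 102 CPM in CRISPRd_Control, 9.27 in the miR301a knockout and 57.6 in the miR454 knockout. The miR301a knockout had the lowest STC2 of the table, 0.0908 times the level of CRISPRd_Control (0.0772 to 0.106) and 2.61-fold below LV-vector-34 (2.18 to 3.12). For the miR454 knockout the direction turned with the control, since its log2 ratio was -0.82 to CRISPRd_Control and 1.23 to LV-vector-34. Only the ratio to LV-vector-34 passed the rule there. STC2 rose 2.56-fold (2.33 to 2.82) in the promoter-repressed library, from 29.3 to 75.0 CPM. VLDLR, the very low density lipoprotein receptor, passed the rule nowhere.

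XBP1, the target of IRE1 splicing, was the member of the sensor group that changed. It was at 69.3 CPM in LV-vector-34, 78.2 in LV-miR301a, 64.0 in LV-miR454, 72.1 in LV-3+4 and 75.6 in CRISPRd_Control. The miR301a knockout had 240 CPM and the miR454 knockout 154 CPM, both above all 5 other libraries. How many of all genes separate the knockouts in this way was not counted. XBP1 rose 3.17-fold (2.99 to 3.36) in the miR301a knockout and 2.03-fold (1.91 to 2.17) in the miR454 knockout, and 3.45-fold and 2.22-fold against LV-vector-34. With total-count scaling the miR454 knockout missed the rule against CRISPRd_Control, at a log2 ratio of 0.91. These counts are for the whole gene and do not separate spliced from unspliced message. In the other tables XBP1 was at 71.6 CPM in the mock library, 53.8 in the promoter-repressed one and 140 to 168 CPM in the PRR11 and SKA2 set. The sensors IRE1 (ERN1), ATF6 and PERK (EIF2AK3) did not pass the rule in any library. EIF2AK3 was at 16.6 CPM in CRISPRd_Control, 26.2 in the miR301a knockout and 25.0 in the miR454 knockout, at log2 ratios of 0.64 and 0.57, and 16.7 in LV-vector-34.

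Of the 11 endoplasmic reticulum chaperones and folding factors, DNAJB9 alone rose past the rule against CRISPRd_Control. It did so in both knockouts, where 6.72% (miR301a) and 6.61% (miR454) of all genes were higher. DNAJB9, a co-chaperone that also binds IRE1, was at 7.35 CPM in CRISPRd_Control, 25.4 in the miR301a knockout and 19.1 in the miR454 knockout. Its rise was 3.46-fold (2.87 to 4.20) and 2.60-fold (2.14 to 3.18), and 2.81-fold and 2.11-fold against LV-vector-34. It was between 8.87 and 11.2 CPM in the other 4 libraries of the table. In the PRR11 and SKA2 set DNAJB9 was at 20.5 to 22.1 CPM. It was at 18.4 CPM in the mock library and 36.4 in the promoter-repressed one. The other 10 chaperones and folding factors were also on the high side of CRISPRd_Control in both knockouts, by less than 2-fold. In the miR301a knockout all 11 were above CRISPRd_Control and LV-vector-34 under each of the 3 scalings, with median log2 ratios of 0.51 and 0.76. In the miR454 knockout all 11 were above both controls, with medians of 0.40 and 0.53, except that 10 of 11 were above CRISPRd_Control when libraries were scaled by total counts. Over all genes the median against CRISPRd_Control was -0.01 in both knockouts, and the share of all genes above a control was not counted. HYOU1, a large relative of HSP70, was at 130 CPM in CRISPRd_Control, 231 in the miR301a knockout and 186 in the miR454 knockout, and passed the rule only for the miR301a knockout against LV-vector-34 (2.23-fold, 2.12 to 2.36).

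The abundant chaperones moved unequally within this group. HSP90B1, also called GRP94, was at 838 CPM in CRISPRd_Control, 1473 in the miR301a knockout and 1255 in the miR454 knockout. HSPA5, the central chaperone BiP whose promoter stretch is printed above, was at 515, 600 and 539 CPM, at log2 ratios of 0.22 and 0.07. HSPA5 was at 391 CPM in LV-vector-34, which put the same ratios at 0.62 and 0.46. The calcium-binding CALR was at 755, 1080 and 974 CPM in the 3 libraries of the knockout set. CRELD2, a secreted stress protein with the printed stress element, was at 24.2, 41.4 and 42.1 CPM, and DNAJC3, a co-chaperone, at 30.9, 54.8 and 38.2 CPM. The disulfide isomerases PDIA4 and PDIA6, the HSPA5 cofactor SDF2L1 and the secreted factor MANF had log2 ratios to CRISPRd_Control between 0.13 and 0.51 in both knockouts, and between 0.47 and 0.73 to LV-vector-34. In the promoter-repressed library the median of the 11 was -0.08, with DNAJB9 at 36.4 CPM against 18.4, a log2 ratio of 0.97 just short of the rule.

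**Figure D3:**
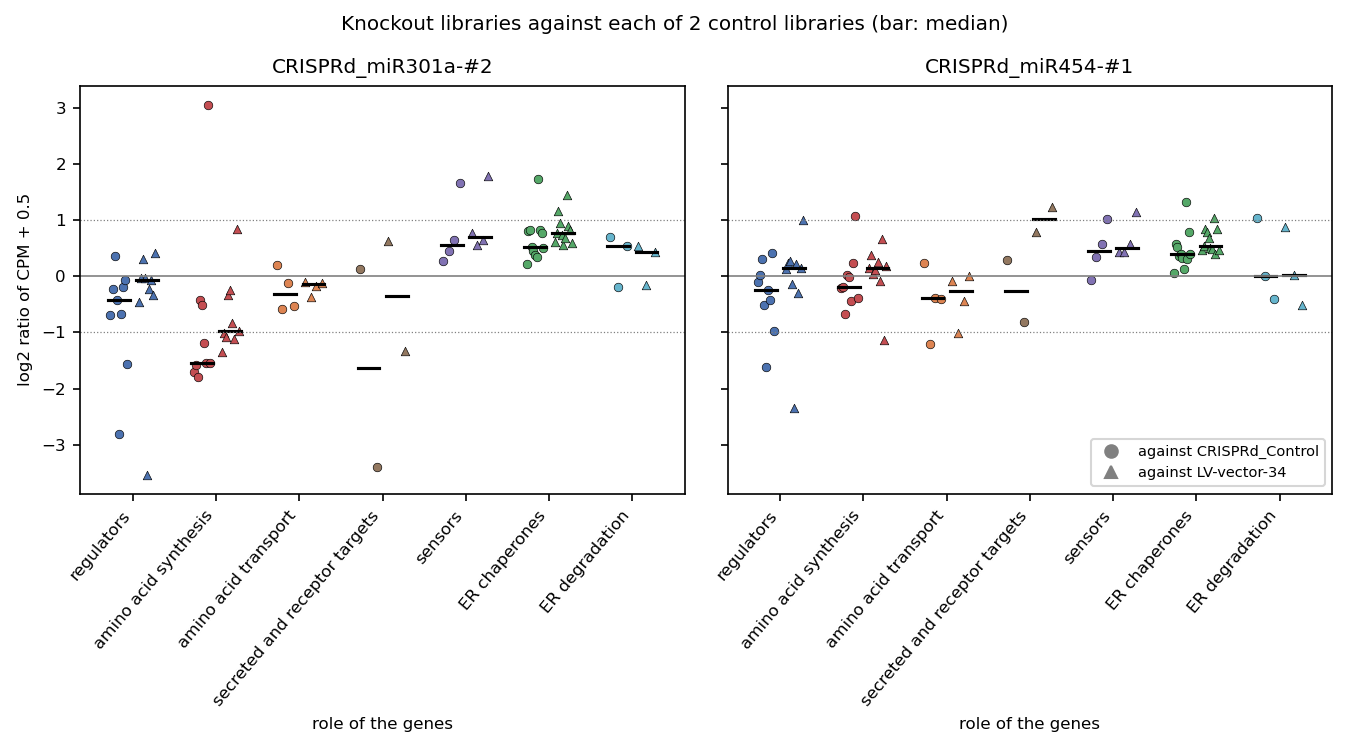
Log2 ratio of CPM + 0.5 (vertical axis) of each gene by role (horizontal axis) in the 2 knockout libraries, against CRISPRd_Control (circles) and LV-vector-34 (triangles), with bars at the median and dotted lines at 2-fold. The 11 chaperones lie above 0 in both panels with either control (10 of 11 in the miR454 knockout against CRISPRd_Control with total-count scaling), and 8 of the 9 synthesis enzymes lie below 0 in the miR301a knockout with either control, CTH being above.

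Of the 3 genes of endoplasmic reticulum degradation, HERPUD1 was called once. HERPUD1, a membrane protein of the degradation complex, was at 35.4 CPM in CRISPRd_Control, 57.6 in the miR301a knockout and 73.0 in the miR454 knockout. Its rise in the miR454 knockout was 2.06-fold (1.88 to 2.26), but the log2 ratio was 0.92 with total-count scaling and 0.88 against LV-vector-34, both below the rule. SEL1L, the adaptor of the HRD1 ligase, had log2 ratios of 0.53 in the miR301a knockout and -0.41 in the miR454 knockout, and 0.43 and -0.51 to LV-vector-34. EDEM1, which takes misfolded glycoproteins to degradation, stayed within 0.23 of its control in every pair.

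Other genes of the same pathways were read next to the members. Of 12 cytosolic tRNA synthetases, which ATF4 also raises, 4 fell and 0 rose in the miR301a knockout (4.15% of all genes lower), and all 12 were below CRISPRd_Control with a median of -0.74. They were CARS1 (93.8 to 42.1 CPM), GARS1 (286 to 134), MARS1 (279 to 124) and YARS1 (177 to 82.2). Against LV-vector-34 none of the 12 passed the rule, with 11 below and a median of -0.35, and LV-vector-34 itself had all 12 below CRISPRd_Control. Of 30 measured genes in a list of other ATF4 and integrated stress response genes, 2 rose and 3 fell in the miR301a knockout (10.9% of all genes called), with a median of -0.38. Against LV-vector-34 the same list had 0 higher and 3 lower. BCAT1, the branched-chain aminotransferase, was at 8.26 CPM in CRISPRd_Control and 0.755 in the knockout, and at 11.9 CPM in LV-vector-34 and 2.59 in LV-miR454, both falls past the rule. SLC38A2, a neutral amino acid carrier that ATF4 raises, went the other way in the miR301a knockout, from 193 to 421 CPM, with 255 CPM in LV-vector-34 and a log2 ratio of 0.72 to it. ADM2 (5.88 to 1.99 CPM) fell there against both controls, and NIBAN1 (10.2 to 3.56) against CRISPRd_Control only, being at 3.30 CPM in LV-vector-34. KLHL24 rose from 3.95 to 14.1 CPM, and to 9.71 CPM in the miR454 knockout as the single call of that list there, but its log2 ratios to LV-vector-34 were 0.92 and 0.40.

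The wider unfolded protein response list was on the high side like the chaperones, without any single call. Against CRISPRd_Control, 10.9% (miR301a knockout) and 9.72% (miR454 knockout) of all genes were called, so this list was called less often. The median over all genes was -0.01 in both of these pairs, and the share of all genes above a control was not counted. Of its 31 measured genes, 30 were above CRISPRd_Control in the miR301a knockout with a median of 0.44, and 30 were above LV-vector-34, also with a median of 0.44. In the miR454 knockout 27 were above CRISPRd_Control and 25 above LV-vector-34, with a median of 0.21 in both. The same 31 genes had medians of 0.06 in LV-miR301a, 0.07 in LV-miR454 and 0.00 in LV-3+4. Other lists moved in the same libraries. Of 7 A549 and epithelial markers, 2 were higher than in CRISPRd_Control in each knockout, where 6.72% (miR301a) and 6.61% (miR454) of all genes were. The summed level of the 7 was 18467 CPM in CRISPRd_Control, 29861 and 33379 in the knockouts and 23803 to 24809 in the 4 lentiviral libraries. The 18 NRF2 targets summed to 16843 CPM in CRISPRd_Control, 22687 and 25993 in the knockouts and 20352 to 20884 in the 4 lentiviral libraries. Of 10 fibroblast markers, the summed level was 167 CPM in CRISPRd_Control, 35.0 in the miR301a knockout, 110 in the miR454 knockout and 80.9 in LV-vector-34. COL1A2 and DCN were at 0 in CRISPRd_Control, THY1 in the miR301a knockout, and DCN, LUM, POSTN and THY1 in the miR454 knockout. Of 6 immune markers, CD3E was at 0 in all 7 libraries, and the summed level was 49.6 CPM in CRISPRd_Control and 129 and 160 CPM in the knockouts, most of it CD68 (112 and 144 CPM). The part of these shifts in the results above was not tested.

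In LV-miR454, the other ATF4 and integrated stress response list had 2 higher and 3 lower of 30, where 6.39% of all genes were called and 3.42% were lower. ATF3, a stress-induced partner of ATF4, rose from 5.44 to 16.5 CPM, and SLC1A4, an amino acid carrier, from 20.8 to 45.0 CPM. The fibroblast marker list moved with this library too, with 4 of 5 measured genes higher and 1 lower and a summed level of 310 CPM against 80.9. Its part in the result was not tested.

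Under promoter repression 8 of the 9 enzymes and all 4 carriers were below the mock library. Of the enzymes, 2 passed the rule as lower, where 5.97% of all genes did. The other large groups were mixed, with 4 of 9 regulators (median -0.03) and 4 of 11 chaperones (median -0.08) above it. DDIT3 and STC2 rose, and CHAC1, NUPR1 and DNAJB9 had log2 ratios of 0.99, 0.92 and 0.97 without passing the rule. Of all 42, 27 were below the mock library (26 with total-count scaling), with a median of -0.13 against -0.04 over all genes. Of 29 measured genes in the list of other ATF4 and stress response genes, 3 rose and 2 fell, a share close to the 15.4% of all genes called. ATF3 (17.8 to 45.6 CPM), SESN2 (12.7 to 31.9), which curbs mTORC1, and KLHL24 (4.43 to 11.4) rose. The carriers SLC6A9 (12.7 to 5.62 CPM) and SLC1A5 (348 to 174) fell. None of the 12 tRNA synthetases passed the rule, with a median of -0.45. Many other genes changed in this library: 18 of 20 proliferation genes were lower (median -1.90), 8 of 12 p53 targets were higher (median 1.29) and 5 of 18 NRF2 targets were lower (median -0.69). Of 6 measured fibroblast markers 5 were higher, with a summed level of 542 CPM against 107. Of 7 measured genes in a list for the HEK293 packaging line 2 were higher and 3 lower, with a summed level of 260 CPM against 113, and SOX11 was at 0 in both libraries. The immune list was at 83.1 CPM against 31.6, with CD3E at 0 in both libraries, and 4 of 12 RNA selection markers, all histone genes, were higher. SESN2 is also a p53 target, and their part in the results was not tested.

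**Figure D4:**
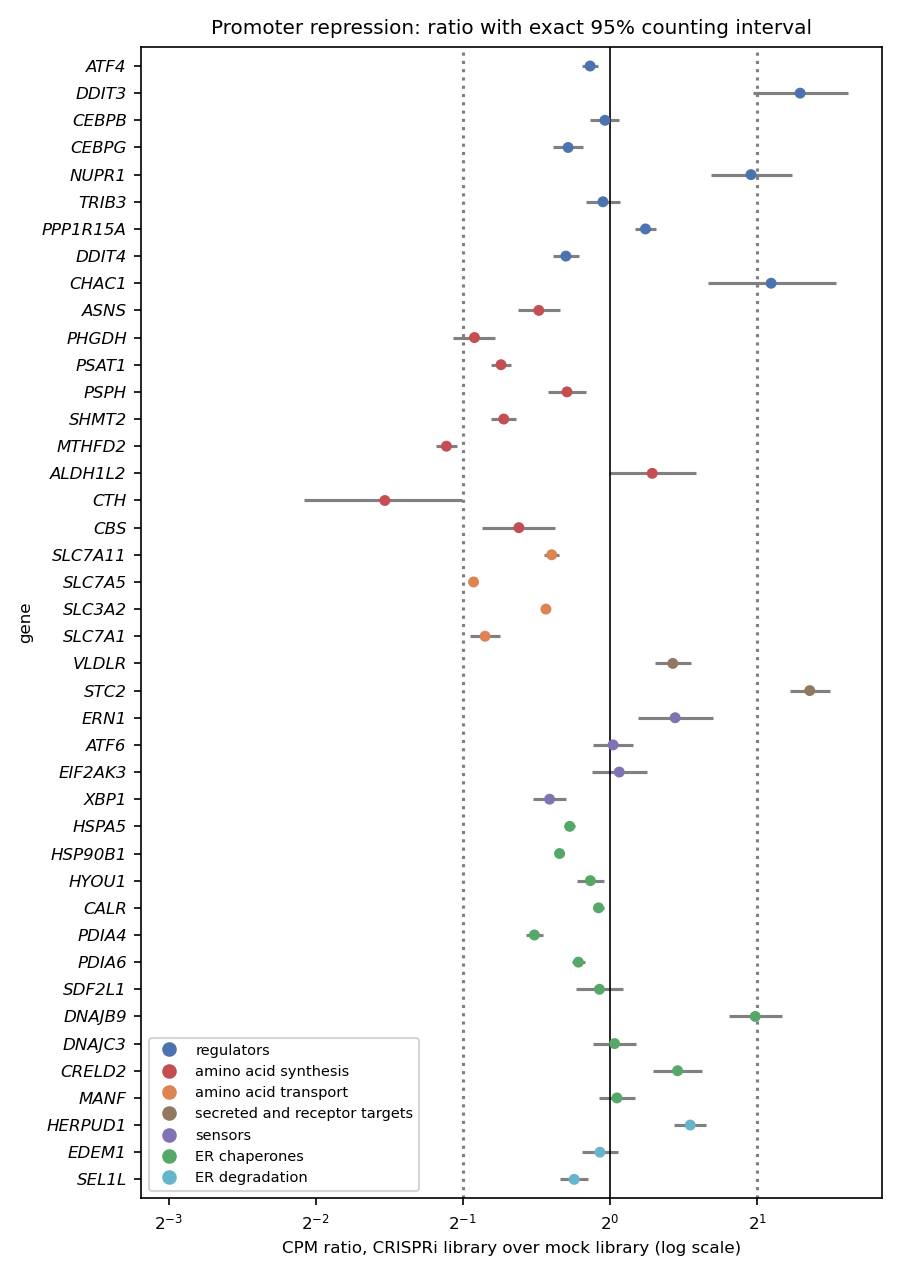
Ratio of CPM in the promoter-repressed library over the mock library (horizontal axis, log scale) for each of the 42 genes (vertical axis), coloured by role, with exact 95% counting intervals as bars and dotted lines at 2-fold in each direction. DDIT3, STC2 and CHAC1 lie beyond 2-fold on the high side and MTHFD2 and CTH on the low side. CHAC1 (6.76 against 3.16 CPM) does so only because this ratio has no 0.5 CPM added, and it missed the rule. The 4 carriers lie between 0.526 and 0.760.

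In the PRR11 and SKA2 set the members hardly moved. The highest and lowest log2 ratios were 0.24 (PPP1R15A) and -0.19 (CBS) in LV-PRR11, 0.27 (CTH) and -0.23 (DDIT3) in LV-SKA2, and 0.16 (CTH) and -0.21 (DDIT3) in LV-P+S. An additive model of both labels over the 4 libraries (edgeR's quasi-likelihood test, 1 residual degree of freedom, Benjamini-Hochberg adjustment over 13332 genes) weighs a label against the departure of single libraries from additivity, not against replicate cultures. For the PRR11 label 3 of 42 members had an adjusted p under 0.05, where 1.16% of all genes did. CEBPB had a log2 coefficient of -0.23 (edgeR adjusted p = 2.58e-07), MTHFD2 one of 0.15 (0.0165) and XBP1 one of -0.14 (0.0395). For the SKA2 label 8 of 42 did, against 5.9% of all genes. CEBPB (log2 coefficient 0.18), CBS (0.25) and XBP1 (0.12) were higher, and STC2 (-0.27), MTHFD2 (-0.13), PSAT1 (-0.13), HSPA5 (-0.11) and HSP90B1 (-0.09) lower, with edgeR adjusted p from 8.35e-05 to 0.0467. All 11 coefficients lay between -0.27 and 0.25, and DESeq2 called 0 members for either label, with 42 and 11 members tested and 2 and 4 at an unadjusted p under 0.05. SKA2 itself was below the vector in the libraries labelled for it, so no direction is drawn from that label. PRR11 was at 109% and 110% of the vector in LV-PRR11 and LV-P+S, so its own counts rose little with the PRR11 label.

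The same model for the lentiviral microRNA set called no member. For the miR301a label 0 of 42 passed in edgeR, with 5 at an unadjusted p under 0.05, and DESeq2 also called 0, with 6 at an unadjusted p under 0.05 (0% of all genes were called by edgeR). For the miR454 label both tools called 0, with 3 and 4 members at an unadjusted p under 0.05 (0.00683% of all genes called by edgeR). Both terms of this model use the LV-miR301a library, with 28 counts in the MIR454 row, and the LV-3+4 library, with 0, each against its label. In LV-miR301a the members ran from -0.53 (NUPR1, 16.0 to 10.9 CPM) to 0.50 (CHAC1, 4.45 to 6.52 CPM). In LV-3+4 they ran from -0.14 (NUPR1) to 1.17 (CHAC1), and 33 of 42 were above LV-vector-34 (32 with total-count scaling) with a median of 0.09 against 0.00 over all genes.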

How the data were processed

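Polyadenylated RNA of 13 A549 libraries was sequenced, 1 library per group. Expected counts of genes were deposited by the authors in 3 tables, and Bowtie2 2.3.5.1, RSEM 1.3.3 and GRCh38.p13 come from the submitters' processing notes. The labels give neither the annotation nor the strand setting. Entries were summed per symbol (4838 numbered copies in the microRNA table) and rounded. In the promoter-repression table, 181 entries without a name held 0.355% (mock) and 0.431% (repressed) of the counts and were left out. Older symbols were matched through reference tables.

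CPM used TMM factors computed separately for every table in edgeR 4.0.16 under R 4.3.3. Each library was compared with its control as log2(CPM + 0.5), with exact 95% intervals (scipy 1.17.1), and no p-value, since there are no replicates. The 2 lentiviral sets were also fitted with edgeR's quasi-likelihood test (additive labels, 1 CPM in at least 2 libraries), with DESeq2 1.42.0 as an alternative. The code was tested on simulated data. Members past the rule were named, with the highest and lowest where calls were few, and from other lists up to 4 called genes per direction with the largest fold at 5 CPM or more. The members and lists were chosen with earlier results of these data known.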

Additional observations from a re-analysis of the deposited data

How the results depend on the processing

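No paired analysis was possible because each group has 1 library and the labels give no replicate numbers; for the same reason no replicate could be left out. All 27 member calls held with DESeq2 size factors, without a filter on low counts, with at least 5 CPM in either library and with the first entry of each symbol; 24 held with total counts and 26 with a pseudocount of 1 CPM. With total counts the promoter-repressed library had 4 members higher in place of 2, and the miR454 knockout 1 higher in place of 4 (CTH, XBP1 and HERPUD1 fell under the rule, and the median of all genes went from -0.01 to -0.12). A 1.5-fold rule gave 5 higher and 8 lower under promoter repression (18.4% and 16.8% of all genes), 1 higher and 7 lower in LV-miR454 (8.15% and 10.1%), 9 higher in the miR301a knockout (13.6%) and 5 lower in the miR454 knockout (9.2%). Counts that stayed within 1.5 times those of the 2-fold rule are left out here. These include the lower members of the miR301a knockout and the higher members of the miR454 knockout. With LV-vector-34 as the control of the knockouts 12 of 18 calls held; CHAC1 in the miR301a knockout turned to 0.41, CTH in the miR454 knockout to -1.13, and the median of the members in the miR454 knockout was 0.32 in place of 0.05. Calls gained against LV-vector-34, such as those of STC2 and CHAC1 in the miR454 knockout, are not among the 12. In the additive fit DESeq2 called 0 members for the PRR11 label (3 in edgeR, 2 without a filter) and 0 for the SKA2 label (8 in edgeR, 7 without a filter). Where not stated, the cause was not tested. Counting intervals are wide for members at low levels, such as NUPR1 and CTH, and they hold no spread between cultures, since no group has a replicate.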
